A study of Mus musculus with 6 samples.

Results

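The hormones FGF21 and GDF15, the FGF co-receptor beta-klotho and the FGF receptors were followed through livers lacking FAM210A in hepatocytes. The genes are Fgf21, Gdf15, Klb, Fgfr1, Fgfr2, Fgfr3 and Fgfr4, chosen by name as 7 of the 54532 genes in the count table. None was lost to the filter on low counts, which left 13706 genes for testing. Liver RNA was sequenced from mice aged 5 weeks, in 3 libraries labelled Fam210aHKO (hepatocyte-specific knockout of Fam210a, which encodes a mitochondrial protein) and 3 labelled Ctrl. The labels give neither the Cre driver nor the alleles carried by the Ctrl mice, whose library names only hold the letters WT. They also do not state that the libraries came from different animals. P-values therefore reflect the spread between libraries, which can be technical in part. For Fam210aHKO replicates 2 and 3 the genotype field names a different Fam gene, and the groups follow the sample titles.

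FGF21 is an endocrine member of the fibroblast growth factor family that the liver releases during fasting, protein restriction and mitochondrial or amino acid stress. It acts on cells that carry beta-klotho together with an FGF receptor, chiefly FGFR1 in adipose tissue and brain. GDF15 is a distant member of the TGF-beta family, released by stressed cells of many tissues, and its receptor GFRAL, which signals with RET, is found in the hindbrain. In hepatocytes the main FGF receptor is FGFR4, which with beta-klotho receives the intestinal hormone FGF15 (FGF19 in humans) and restrains bile acid synthesis. The genes of both hormones are known targets of ATF4, the transcription factor of the integrated stress response.

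Libraries held 12.5 to 19.7 M counts in Fam210aHKO and 13.0 to 16.9 M in Ctrl (1 M is 1e6), and 3 counts were worth 0.132 to 0.206 CPM (counts per 1e6 after TMM scaling) in Fam210aHKO and 0.202 to 0.261 CPM in Ctrl. Fam210a itself had 31.7, 28.6 and 44.2 CPM in Fam210aHKO, against 119, 136 and 162 CPM in Ctrl. Fam210aHKO replicate 1 stood apart in Lars2, with 3080 CPM there, 25.5 and 24.3 CPM in Fam210aHKO replicates 2 and 3 and 23.3 to 29.2 CPM in Ctrl. A gene was called when its adjusted p was under 0.05 (edgeR quasi-likelihood test, Benjamini-Hochberg over all tested genes), and this held for 27.5% of all tested genes, 14.0% being higher and 13.5% lower in Fam210aHKO. Scaled by library totals alone, without TMM, the median log2 fold change over all tested genes was 0.47 instead of 0.017, and 42.7% of genes were called higher and 6.33% lower. Changes are given against the typical gene as TMM sets it, and where library totals turn a value, that value is given too.

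Both hormone genes rose in Fam210aHKO, Fgfr4 fell, and Klb, Fgfr1, Fgfr2 and Fgfr3 did not pass the test. Of the 7 genes 2 were called higher, 1 lower and 4 not at all, where 14.0% of all tested genes were called higher and 13.5% lower. For 5 of the 7 the groups had no overlap in CPM, with 4 higher and 1 lower in Fam210aHKO, where 42.7% of all tested genes had no overlap (22.0% higher and 20.7% lower). With library totals 5 of the 7 were called higher and 1 lower, since Fgfr1, Fgfr2 and Fgfr3 then passed. That setting called 42.7% of all tested genes higher and 6.33% lower.

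**Figure D1:**
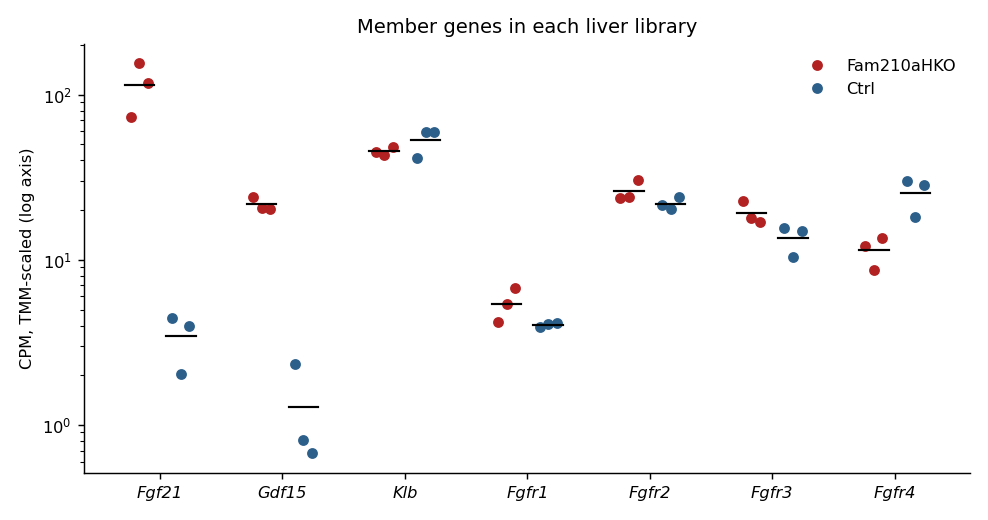
CPM of the 7 genes in each library on a log axis, with Fam210aHKO (red) left of Ctrl (blue). Points are libraries and black lines the means of 3. Fgf21 and Gdf15 lie above every Ctrl library, from 72.9 and from 20.3 CPM up, and Fgfr4 lies below every Ctrl library, at 13.6 CPM or less.

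Fgf21 had 72.9, 154 and 118 CPM in Fam210aHKO replicates 1 to 3, against 4.43, 2.03 and 3.97 CPM in Ctrl replicates 1 to 3. The lowest knockout library thus lay far above the highest control library, and the knockout libraries also differed among themselves, with replicate 1 lowest. The mean was 115 ± 40.9 CPM in Fam210aHKO and 3.48 ± 1.28 CPM in Ctrl (SD, n = 3 each), a 33.0-fold difference (log2 fold change 5.05, SE 0.345, adjusted p = 5.87e-06). Raw counts were 1524, 2245 and 2695 in Fam210aHKO and 51, 25 and 59 in Ctrl. The gene covers 1605 bases of chromosome 7, from 45613886 to 45615490 on the minus strand (mm10), and its 3 exon blocks share no base with another gene in GENCODE M21.

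Gdf15 had 23.9, 20.7 and 20.3 CPM in Fam210aHKO replicates 1 to 3, against 2.35, 0.812 and 0.672 CPM in Ctrl. The knockout libraries were close together, while Ctrl replicate 1 was higher than the other Ctrl libraries. The mean was 21.6 ± 1.99 CPM in Fam210aHKO and 1.28 ± 0.930 CPM in Ctrl (SD, n = 3 each), a 17.2-fold difference (log2 fold change 4.11, SE 0.372, adjusted p = 2.87e-05). Control counts were low, at 27, 10 and 10, against 500, 301 and 462 in Fam210aHKO. Without Ctrl replicate 1 the log2 fold change was 4.85. With all libraries it was 3.16 on log2(FPKM + 1), a scale that understates changes of low genes. Gdf15 lies on chromosome 8 from 70629393 to 70632456, on the minus strand, and also shares no exon base with another gene.

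Per length, Fgf21 was the more abundant message of the pair in every library. Its level was 76.7, 162 and 124 CPM per kb in Fam210aHKO and 4.66, 2.13 and 4.17 CPM per kb in Ctrl, against 12.9, 11.2 and 10.9 CPM per kb of Gdf15 in Fam210aHKO and 1.27, 0.438 and 0.363 CPM per kb in Ctrl. The ratio of Fgf21 to Gdf15 within a library, which no scaling between libraries can move, was 5.94, 14.5 and 11.4 in Fam210aHKO and 3.68, 4.87 and 11.5 in Ctrl. These ratios overlapped between the groups (exact two-sided permutation test on the log2 ratio, p = 0.3, adjusted p = 0.3 over 6 within-library measures; the smallest p this design allows is 0.1).

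The promoters of the pair and of Fgfr4, the 3 members that were called, are shown because ATF4 with a C/EBP partner binds a composite element, the C/EBP-ATF response element, with the core TGATGNAA. The 250 bases before the RefSeq start are printed on the gene's strand (GRCm38.p6), with matches to TGATGNA on either strand in capitals. The Fgf21 window is chr7:45615491-45615740 (minus strand), the Gdf15 window chr8:70632457-70632706 (minus strand) and the Fgfr4 window chr13:55152568-55152817 (plus strand).
Fgf21: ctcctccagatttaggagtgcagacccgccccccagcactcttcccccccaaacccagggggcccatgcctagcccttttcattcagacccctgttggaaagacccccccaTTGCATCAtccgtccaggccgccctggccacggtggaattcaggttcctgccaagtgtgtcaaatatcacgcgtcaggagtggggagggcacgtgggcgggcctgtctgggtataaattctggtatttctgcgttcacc
Gdf15: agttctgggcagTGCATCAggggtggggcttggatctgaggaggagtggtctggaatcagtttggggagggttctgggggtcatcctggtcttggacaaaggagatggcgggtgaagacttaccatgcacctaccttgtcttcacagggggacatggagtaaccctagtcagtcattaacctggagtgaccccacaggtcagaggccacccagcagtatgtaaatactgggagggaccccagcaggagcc
Fgfr4: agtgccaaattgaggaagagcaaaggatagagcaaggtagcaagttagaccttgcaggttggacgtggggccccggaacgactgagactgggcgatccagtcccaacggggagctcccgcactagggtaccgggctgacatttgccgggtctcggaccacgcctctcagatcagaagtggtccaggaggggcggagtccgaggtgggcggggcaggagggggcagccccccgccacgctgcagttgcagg
The full core was matched in the Fgf21 window as TTGCATCA on the opposite strand, from base -139 to base -132 before the start. The Gdf15 window held only the shorter form TGATGNA, as TGCATCA from base -238 to base -232. No match to either form was found in the Fgfr4 window. RefSeq promoter windows (250 bases before to 50 after a start) were matched for 6 of the 7 genes, all but Fgfr1, and Fgf21 alone held the full core, which 4.51% of the 27025 genes with a window held (3.97% of all 32851 windows). The shorter form, searched after the sequences had been seen and overlapping the full core by construction, occurred in 12.2% of windows. The cyclic AMP element TGACGTCA (1.79% of windows) and the DR1 element read by PPAR-alpha with RXR, a direct repeat of AGGTCA spaced by a single base (0.0396%), were not found in the windows of these genes. A match describes letters in a window and does not show binding.

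Transcription factors known to act on Fgf21 or Gdf15 moved in both directions. Of 17 listed and tested, 6 rose, 3 fell and 8 did not pass, with a median log2 fold change of 0.26 (0.71 with library totals, where 9 rose and 1 fell). Among all tested genes 14.0% rose and 13.5% fell (42.7% and 6.33% with library totals). Nupr1, a stress-induced chromatin protein, had 280, 127 and 51.3 CPM in Fam210aHKO, against 0.870, 1.87 and 0.874 CPM in Ctrl (log2 fold change 6.99, SE 0.627, adjusted p = 2.70e-05). Atf3, a repressor induced downstream of ATF4, had 130, 66.0 and 39.9 CPM in Fam210aHKO, against 1.30, 1.30 and 1.68 CPM in Ctrl (log2 fold change 5.77). Ddit3, which encodes CHOP, had 123, 80.1 and 44.0 CPM in Fam210aHKO, against 6.87, 4.46 and 3.29 CPM in Ctrl. These 3 genes were highest in Fam210aHKO replicate 1 and lowest in replicate 3, whereas Fgf21 was lowest in replicate 1. Atf4 itself had 149, 169 and 129 CPM in Fam210aHKO, against 64.8, 67.1 and 65.5 CPM in Ctrl (log2 fold change 1.18, SE 0.144, adjusted p = 0.000192). The promoters of Atf3 and Nupr1 also held the TGATGNAA core, as 2 of the 17 with a RefSeq window, where 4.51% of all genes with a window held it. In the lists below it was held by Nr5a2, as 1 of 7 bile acid genes with a window, and by Angptl8 and Rbp4, as 2 of 18 secreted factors. Nr5a2 was called lower, and Angptl8 and Rbp4 were not called. Pacsin2 and Gm34934, among the genes most like Fgfr3 and Fgfr2, held it too and were not called.

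Among the factors of this list that fell were metabolic activators of Fgf21. Ppara, the fasting receptor that drives Fgf21 in the fasted liver, had 62.0, 59.2 and 114 CPM in Fam210aHKO, against 135, 140 and 205 CPM in Ctrl (log2 fold change -1.03, adjusted p = 0.0120). Library totals ended that call (adjusted p = 0.0786), as did leaving out Ctrl replicate 3 (adjusted p = 0.0515), without which 1 factor of the list was lower. Mlxipl, which encodes the carbohydrate sensor ChREBP, had 26.4, 15.1 and 33.7 CPM in Fam210aHKO, against 84.8, 56.0 and 63.2 CPM in Ctrl (log2 fold change -1.44, adjusted p = 0.00231). The pancreas is another known source of Fgf21, and acinar cell markers summed to 5.00 to 5.57 CPM in Fam210aHKO and 7.63 to 11.7 CPM in Ctrl, with Cpa1 and Amy2a5 at 0 counts in every library. Of these 6 markers 1 passed the filter on low counts. The part of pancreatic tissue in the level of Fgf21 was not tested.

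Over the receptor genes the clearest change was in Fgfr4, the hepatocyte receptor. It had 12.1, 8.67 and 13.6 CPM in Fam210aHKO replicates 1 to 3, against 29.8, 18.3 and 28.4 CPM in Ctrl replicates 1 to 3. The groups did not overlap, and replicate 2 was the lowest library in each. The mean was 11.5 ± 2.55 CPM in Fam210aHKO and 25.5 ± 6.30 CPM in Ctrl (SD, n = 3 each), with a fold change of 0.451 (log2 fold change -1.15, SE 0.229, adjusted p = 0.00365). With library totals the log2 fold change was -0.71 and the call remained (adjusted p = 0.0334). Fgfr4 lies on chromosome 13 from 55152640 to 55168759, on the plus strand, and shares no exon base with another gene.

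Klb, the co-receptor without which FGF21 and FGF15 do not signal, did not pass. It had 45.2, 43.2 and 48.0 CPM in Fam210aHKO, against 41.3, 59.7 and 59.1 CPM in Ctrl, so that the knockout libraries lay within the spread of the controls. The log2 fold change was -0.23 (SE 0.165, adjusted p = 0.332), and 0.23 with library totals. In bulk liver, fewer cells of a type and less RNA per cell cannot be told apart. The hepatocyte markers summed to 83847 to 102570 CPM in Fam210aHKO and 147769 to 223555 CPM in Ctrl. Most of this was Alb, at 68148 to 86553 CPM in Fam210aHKO and 110643 to 183868 CPM in Ctrl, which was not called (adjusted p = 0.449). Of the 6 markers 3 were called lower and none higher, where 13.5% of all tested genes were called lower. The part of hepatocytes in the level of Fgfr4 and Klb was not tested.

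Fgfr3 had 22.7, 18.0 and 16.9 CPM in Fam210aHKO, against 15.6, 10.4 and 14.9 CPM in Ctrl. Every knockout library was above every control library, but the fitted difference missed the threshold (log2 fold change 0.49, SE 0.200, adjusted p = 0.0916). It passed with the replicate number as a block (adjusted p = 0.0325, where 17.8% of all tested genes were called higher). Library totals gave a log2 fold change of 0.94, which passed as well (adjusted p = 0.00552). G630022F23Rik, a locus on the opposite strand, overlaps 998 of its 7158 exon bases, with at most 5 counts in any library.

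Fgfr1, the receptor through which FGF21 acts on fat and brain, was the least abundant of the 4. It had 4.21, 5.37 and 6.71 CPM in Fam210aHKO, against 3.91, 4.06 and 4.17 CPM in Ctrl. The lowest knockout library barely exceeded the highest control, and the gene did not pass (log2 fold change 0.42, SE 0.235, adjusted p = 0.210). Fgfr2, whose product binds FGF7 and FGF10 in epithelia, had 23.8, 24.0 and 30.4 CPM in Fam210aHKO, against 21.4, 20.2 and 24.1 CPM in Ctrl. These ranges overlapped (log2 fold change 0.25, SE 0.162, adjusted p = 0.281). With library totals both were called higher (log2 fold change 0.87 and 0.70, adjusted p = 0.0108 and 0.00776). The annotated span of Fgfr2 is 2960900 bases and takes in 69 other genes, but its exons share only 314 of 10328 bases with the exons of another gene, Ctbp2.

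Cells other than hepatocytes also express Fgfr1, Fgfr2 and Fgfr3. Some markers of such cells were called, where 14.0% of all tested genes were called higher and 13.5% lower. Cholangiocyte markers summed to 135 to 275 CPM in Fam210aHKO and 39.3 to 58.5 CPM in Ctrl, most of it Spp1, with 2 of the 4 tested called higher. Stellate cell and fibroblast markers summed to 606 to 852 CPM in Fam210aHKO and 500 to 554 CPM in Ctrl. Of these 10, Col1a1 and Col3a1 were called higher and 8 were not called. Endothelial markers summed to 169 to 290 CPM in Fam210aHKO and 264 to 357 CPM in Ctrl, which overlapped, with 2 of 6 called lower. The part of these cells in the receptor levels was not tested.

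The make-up of the receptors, taken within each library as counts per kb of gene length, differed between the groups without depending on how libraries were scaled. Fgfr4 made up 36.7%, 31.3% and 39.2% of the 4 receptors in Fam210aHKO replicates 1 to 3, against 64.5%, 57.4% and 62.3% in Ctrl. Fgfr3 made up 34.0%, 32.1% and 24.0% in Fam210aHKO, against 16.6%, 16.2% and 16.2% in Ctrl. Fgfr2 made up 24.8%, 29.7% and 29.9% in Fam210aHKO, against 15.9%, 21.8% and 18.2% in Ctrl. For each of these 3 receptors the groups did not overlap, and the mean difference was -25.7 percentage points for Fgfr4, 13.7 for Fgfr3 and 9.52 for Fgfr2. Each reached the smallest p the design allows (exact two-sided permutation test, p = 0.1, adjusted p = 0.15 over 6 measures), which does not pass 0.05. Fgfr1 made up 6.14 ± 1.36% in Fam210aHKO and 3.63 ± 0.829% in Ctrl (SD, n = 3 each), and these shares overlapped (exact permutation p = 0.2, adjusted p = 0.24).

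**Figure D2:**
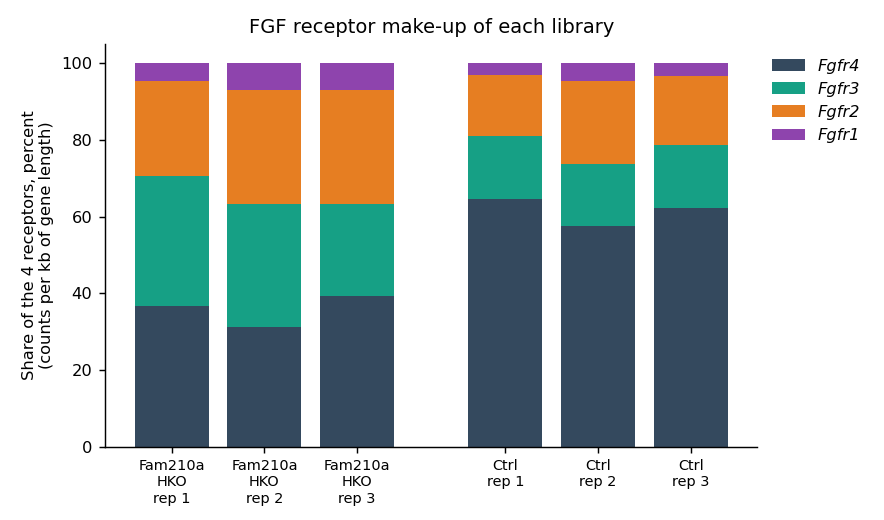
Share of each FGF receptor in the sum of the 4, in percent of counts per kb, stacked for each library with Fam210aHKO left of Ctrl. Fgfr4 (dark, at the bottom) takes at most 39.2% of a Fam210aHKO library and at least 57.4% of a Ctrl library.

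In order of level, Klb stood first in both groups, at 9.99 ± 0.529 CPM per kb in Fam210aHKO and 11.7 ± 2.29 CPM per kb in Ctrl (SD, n = 3 each). In Fam210aHKO it was followed by Fgfr4 at 3.24 ± 0.719, Fgfr3 at 2.68 ± 0.430 and Fgfr2 at 2.52 ± 0.362 CPM per kb, whose ranges overlapped, and then by Fgfr1 at 0.550 ± 0.127 CPM per kb. In Ctrl Fgfr4 at 7.20 ± 1.78 CPM per kb was above Fgfr2 at 2.12 ± 0.195 and Fgfr3 at 1.90 ± 0.394 CPM per kb, which overlapped each other, and Fgfr1 was last at 0.410 ± 0.0129 CPM per kb. The length is that of all annotated exons, so isoforms that use only part of them would have their level per kb understated. The ratio of Klb to Fgfr4 was 2.91, 3.88 and 2.74 in Fam210aHKO, against 1.08, 2.54 and 1.62 in Ctrl, without overlap (mean difference of the log2 ratio 0.93, exact two-sided permutation test, p = 0.1, adjusted p = 0.15).

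**Figure D3:**
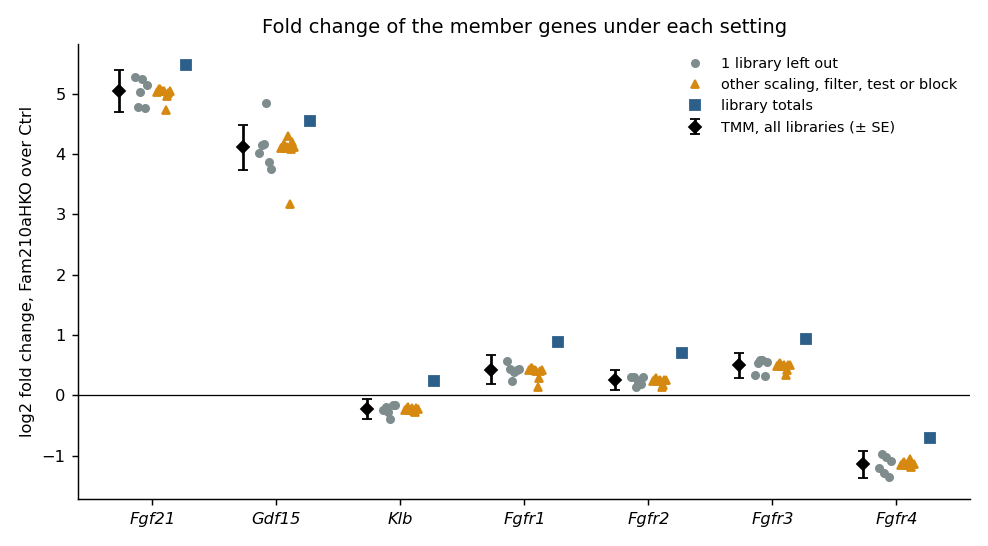
Log2 fold change of each gene, Fam210aHKO over Ctrl, with TMM and all libraries (black, with SE), with each library left out, with other scalings, filters, tests or the replicate block, and with library totals (blue). Fgf21, Gdf15 and Fgfr4 keep their direction throughout, and Klb is above 0 with library totals alone, at 0.23.

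Among the other FGF ligands the liver expressed mainly Fgf1, and it fell. Fgf1, a ligand of all FGF receptors that acts within the tissue, had 29.9, 26.6 and 36.3 CPM in Fam210aHKO, against 148, 176 and 205 CPM in Ctrl. The groups lay far apart (log2 fold change -2.51, SE 0.179, adjusted p = 7.10e-06; -2.06 with library totals). Of 21 listed ligands only Fgf1 and Fgf2 were tested, and Fgf2 did not pass, at 1.26 ± 0.436 CPM in Fam210aHKO and 1.29 ± 0.554 CPM in Ctrl (SD, n = 3 each). Fgf15, the ligand of FGFR4 made in the ileum, was among 10 ligands with 0 counts in every library.

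Genes that hold FGFs at the cell surface were partly lower. Of 14 co-receptors, decoys and heparan sulfate carriers, 11 were tested, 0 rose, 4 fell and 7 did not pass, with a median log2 fold change of -0.02 (0.42 with library totals, where 3 rose and 1 fell). The shares over all tested genes were 14.0% higher and 13.5% lower (42.7% and 6.33% with library totals). The syndecan Sdc4 had 176, 107 and 119 CPM in Fam210aHKO, against 392, 226 and 341 CPM in Ctrl (log2 fold change -1.26, adjusted p = 0.00267). Sdc2, Gpc4 and the decoy receptor gene Fgfrl1 fell as well (log2 fold change -0.79, -0.69 and -0.50), and none of these 3 passed under library totals (adjusted p = 0.0911, 0.306 and 0.828). Without Fam210aHKO replicate 3, 2 genes of this list were higher, and without Ctrl replicate 3, 1 was. Without Fam210aHKO replicate 2, 2 genes of this list were lower, since Gpc4 and Fgfrl1 then missed the threshold (adjusted p = 0.0587 and 0.182). With 1 library left out, 1339 to 1897 genes were called higher over all tested genes and 1334 to 1834 lower. Fgfrl1 missed it too when Fam210aHKO replicate 1 was left out (adjusted p = 0.116) or Ctrl replicate 1, 2 or 3 (0.0942, 0.0600 and 0.0951).

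The transcript of the GDF15 receptor was not detected in liver. Gfral had 0 counts in all 6 libraries, and Ret had 0, 2 and 1 counts in Fam210aHKO and 0, 0 and 1 in Ctrl. Of 6 genes of this receptor family 2 were tested. Gfra1, the GDNF receptor, fell to 152, 186 and 189 CPM in Fam210aHKO, against 319, 421 and 412 CPM in Ctrl (log2 fold change -1.13, SE 0.167, adjusted p = 0.000628). Gfra2 did not pass (log2 fold change 0.46, adjusted p = 0.507).

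Transcripts of the proteins that relay FGF receptor signals hardly moved under TMM. All 24 listed genes were tested, 0 rose, 1 fell and 23 did not pass, with a median log2 fold change of 0.11. This compares with 14.0% of all tested genes higher and 13.5% lower. With library totals the median was 0.57, 15 rose and 0 fell, where 42.7% of all tested genes were higher and 6.33% lower. Plcg1, the phospholipase that docks on the receptors, had 26.1, 21.0 and 24.8 CPM in Fam210aHKO, against 40.3, 30.4 and 41.0 CPM in Ctrl (log2 fold change -0.64, adjusted p = 0.0157). Under library totals it did not pass (adjusted p = 0.422), nor did it without Fam210aHKO replicate 2 (0.0762) or Ctrl replicate 1 or 3 (0.0504 and 0.0562). With the replicate block 1 gene of this list was higher, where 17.8% of all tested genes were called higher. Without Fam210aHKO replicate 3 the count for this list was also 1.

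Genes induced by ERK downstream of FGF and other growth factor receptors were higher in part. Of 21 listed, 18 were tested, 6 rose, 1 fell and 11 did not pass, with a median log2 fold change of 0.48 (0.93 with library totals, where 10 rose and 1 fell). Calls over all tested genes were 14.0% higher and 13.5% lower (42.7% and 6.33% with library totals). Ccnd1, which encodes cyclin D1, had 55.3, 45.3 and 76.3 CPM in Fam210aHKO, against 12.7, 9.17 and 10.8 CPM in Ctrl (log2 fold change 2.44, adjusted p = 2.42e-05). The growth regulator Myc had 60.2, 41.4 and 19.2 CPM in Fam210aHKO, against 2.96, 2.44 and 3.90 CPM in Ctrl (log2 fold change 3.69). Dusp4, an ERK phosphatase, had 15.8, 5.92 and 7.54 CPM in Fam210aHKO, against 1.48, 1.54 and 2.55 CPM in Ctrl, and Egr1 rose too (log2 fold change 2.38 and 1.32). Phlda1 fell to 6.51, 3.10 and 6.45 CPM in Fam210aHKO, against 30.1, 9.99 and 48.7 CPM in Ctrl (log2 fold change -2.46, adjusted p = 0.00307). Without Ctrl replicate 2, 2 genes of this list were lower. Feedback inhibitors in this list were split. Dusp6 and Spry4 did not pass (log2 fold change -0.08 and -0.54, adjusted p = 0.869 and 0.409). Dusp5 and Spry1 were called higher (log2 fold change 1.25 and 0.76, adjusted p = 0.0108 and 0.0493). Il17rd and Etv5, of the same list, lay above 0 but did not pass (log2 fold change 1.16 and 0.62).

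Of 8 listed bile acid genes (synthesis enzymes, transporters and nuclear receptors), 5 fell, where 13.5% of all tested genes were called lower (6.33% with library totals). The other 3, Nr0b2, Nr1h4 and Abcb11, did not pass (adjusted p = 0.125, 0.116 and 0.0954), and the list had 0 members higher, with a median log2 fold change of -1.07 (-0.61 with library totals, where 2 fell). The hepatocyte markers moved alongside, with 3 of 6 lower and a median log2 fold change of -1.07, and their part in the bile acid genes was not tested. With the replicate block all 8 were lower, where 18.0% of all tested genes were called lower. With upper-quartile factors, and without Ctrl replicate 1, Ctrl replicate 3 or Fam210aHKO replicate 2, each time 3 were lower. Cyp8b1, the sterol 12-alpha-hydroxylase repressed by FGF15, had 221, 224 and 271 CPM in Fam210aHKO, against 830, 755 and 988 CPM in Ctrl (log2 fold change -1.85, SE 0.179, adjusted p = 4.35e-05). The bile salt importer Slc10a1 had 295, 205 and 293 CPM in Fam210aHKO, against 936, 917 and 833 CPM in Ctrl (log2 fold change -1.76, adjusted p = 8.20e-05). Rxra and Nr5a2 fell too, though neither passed under library totals (adjusted p = 0.222 and 0.771) or without Fam210aHKO replicate 2 (0.0506 and 0.174). For Nr5a2 the direction turned with library totals (log2 fold change 0.058, against -0.39 with TMM). It also missed the threshold without Fam210aHKO replicate 1 or 3 (adjusted p = 0.0794 and 0.0961) and without Ctrl replicate 1 or 3 (0.117 and 0.0777). The fifth gene called was Cyp7a1, which catalyses the first step from cholesterol to bile acids (log2 fold change -1.40, adjusted p = 0.0491). Its level was 109.6, 81.0 and 20.3 CPM in Fam210aHKO, against 140.7, 271 and 143 CPM in Ctrl. It was not called with library totals, with upper-quartile factors, or without Ctrl replicate 1 or Ctrl replicate 3. With the replicate block it was called. Its call under the other alternatives is not given here, and these include leaving out Fam210aHKO replicate 3, the lowest library.

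Of the relatives of GDF15 in the TGF-beta family, 3 rose and 1 fell among 19 tested of 32 listed, and 15 did not pass (median log2 fold change 0.49; 0.95 with library totals, where 12 rose and 0 fell). For all tested genes the shares were 14.0% higher and 13.5% lower (42.7% and 6.33% with library totals). Bmp8b had 2.87, 3.92 and 4.04 CPM in Fam210aHKO, against 0.174, 0 and 0 CPM in Ctrl. Gdf9, known from oocytes, had 1.44, 1.31 and 2.06 CPM in Fam210aHKO, against 0.174, 0.244 and 0.134 CPM in Ctrl. The liver activin subunits moved apart, Inhbe to 96.6, 109 and 189 CPM in Fam210aHKO against 64.4, 34.3 and 83.6 CPM in Ctrl, and Inhbc to 26.4, 13.6 and 32.2 CPM in Fam210aHKO against 61.8, 37.6 and 57.0 CPM in Ctrl (log2 fold change 1.11 and -1.11, adjusted p = 0.0229 and 0.0141). The Inhbe call was lost without Fam210aHKO replicate 3, Ctrl replicate 1 or Ctrl replicate 2 (adjusted p = 0.0774, 0.0619 and 0.0555), and the Inhbc call without Ctrl replicate 1 (0.0541) and with library totals (0.0768). The promoter windows of Inhbe and Bmp5 were the 2 in this list that held TGATGNAA, of 21 genes with a window. Over all genes with a window 4.51% held it, and Bmp5 was not called.

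Other hormones and factors that liver secretes went both ways. Of 24 listed, 22 were tested, 4 rose, 6 fell and 12 did not pass, with a median log2 fold change of -0.21 that turned to 0.23 with library totals (8 rose and 5 fell). All tested genes had 14.0% higher and 13.5% lower (42.7% and 6.33% with library totals). Igfbp1, a binding protein that restrains IGF1, rose to 1808, 1682 and 1358 CPM in Fam210aHKO, against 271, 290 and 256 CPM in Ctrl (log2 fold change 2.57, adjusted p = 9.84e-06). Igf1, the growth hormone effector, fell to 122, 162 and 216 CPM in Fam210aHKO, against 461, 893 and 651 CPM in Ctrl (fold change 0.249, adjusted p = 0.000332). Gpnmb, which macrophages also make, had 15.9, 22.0 and 22.2 CPM in Fam210aHKO, against 0, 0.568 and 0.471 CPM in Ctrl. Markers of monocyte-derived macrophages, a list that holds Gpnmb, summed to 41.6 to 57.2 CPM in Fam210aHKO and 13.7 to 21.5 CPM in Ctrl, and their part in Gpnmb was not tested. Fetub and Enho fell (log2 fold change -1.08 and -1.16).

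**Figure D4:**
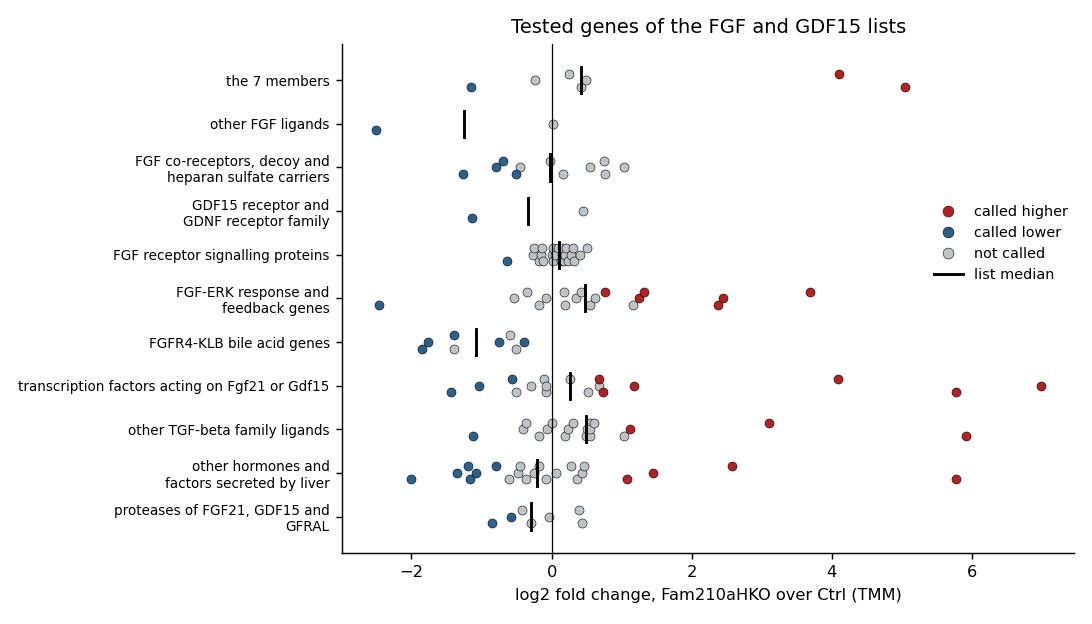
Log2 fold change of every tested gene in the 7-gene set and the 10 lists, Fam210aHKO over Ctrl under TMM. Points are genes, coloured by call, and black bars are list medians. Fgf1, at -2.51, is the lowest ligand gene, and the genes of receptor signalling proteins lie close to 0 with a median of 0.11.

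Protease genes whose products cut these hormones or their receptors were mostly not called. Of 8 listed, 7 were tested, 0 rose, 2 fell and 5 did not pass (median log2 fold change -0.29; 0.15 with library totals, where 2 rose and 1 fell; 2 rose and 2 fell with the replicate block). Shares over all tested genes were 14.0% higher and 13.5% lower. They were 42.7% and 6.33% with library totals, and 17.8% and 18.0% with the replicate block. Dpp4 had 68.5, 74.6 and 88.2 CPM in Fam210aHKO, against 130, 143 and 143 CPM in Ctrl (log2 fold change -0.85, adjusted p = 0.00152). Pcsk7, a proprotein convertase, fell by 0.58 on the log2 scale (adjusted p = 0.0144; 0.538 with library totals, 0.0715 without Fam210aHKO replicate 2 and 0.0531 without Ctrl replicate 3). Fap, the protease that inactivates FGF21 in humans, had 1, 0 and 0 counts in Fam210aHKO and 1, 1 and 1 in Ctrl.

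Genes whose pattern over the 6 libraries was most like that of each member were found by the root mean square difference of centred log2 CPM among 12708 other genes. Centring was over all 6 libraries, so a difference between the groups of similar size counts toward likeness. For Fgf21 the nearest genes were Gldn, Serpina7, Sult2a5, Cdc20 and Plk1, at 0.295 to 0.436 log2 units. Serpina7, the thyroxine-binding globulin gene, had 238, 451 and 297 CPM in Fam210aHKO, against 17.9, 8.93 and 8.34 CPM in Ctrl. For Gdf15 they were Gstm3, Bmp8b, Cdc25c, Bub1 and Pkhd1l1, at 0.216 to 0.421 log2 units. Gstm3 had 103, 127 and 94.5 CPM in Fam210aHKO, against 12.5, 3.57 and 4.30 CPM in Ctrl, and like Sult2a5 it belongs to a family of near-identical genes among which counting can split reads. Apart from Serpina7 and Gstm3, these genes had at most 0.522 CPM in any Ctrl library, so that their distance depends on the prior count. Gdf15 stood at place 31 among the genes like Fgf21, and Fgf21 at place 57 among those like Gdf15, at 0.731 log2 units. None of the 10 genes held TGATGNAA in its RefSeq windows, of the 8 that had one.

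For the receptors the nearest genes lay within 0.0792 log2 units. They were C1rl, Slc25a23 and Psmb9 for Fgfr4, Pacsin2, Abhd17c and Pomt1 for Fgfr3, Gdf2, Wasf2 and Gm34934 for Fgfr2, and Rgs4, Axl and Lgmn for Fgfr1. For Klb they were Tubgcp6, Ankrd28 and Abca1. Slc25a23, a mitochondrial carrier, followed Fgfr4 with 92.2, 62.1 and 91.1 CPM in Fam210aHKO, against 218, 127 and 202 CPM in Ctrl. Axl, a receptor tyrosine kinase, followed Fgfr1 with 25.3, 33.0 and 42.5 CPM in Fam210aHKO, against 25.1, 26.7 and 26.6 CPM in Ctrl.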

How the data were processed

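Liver RNA was isolated with TRIzol and enriched on poly-T beads, per the labels' protocols. Raw counts, whole numbers for each gene and library, are as the authors gave them. Their deposited FPKM values divide by gene length in kb and by a size particular to each library, in 1e6, which came to 81.6% to 86.3% of the count total in Fam210aHKO and 55.4% to 60.1% in Ctrl. FastQC, Trimmomatic, STAR, featureCounts and DESeq2 with build mm10 are named in the submitters' processing notes; the sources used here give no versions, strand setting or handling of multimapping reads. Annotation came from GENCODE M21 and promoter windows from RefSeq (GRCm38.p6).

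Counts were tested in edgeR 4.0.16 (R 4.3.3) with filterByExpr (minimum count 10), TMM factors (mean 1.17 in Fam210aHKO and 0.855 in Ctrl), group as the only factor and the quasi-likelihood F test, checked on simulated data. Standard errors were taken as |log2 fold change| over the square root of F. Alternatives were other scalings and filters, DESeq2 1.42.0, limma 3.58.1 (voom and FPKM), the replicate block and leaving out each library; permutation tests used SciPy 1.17.1. Same-numbered libraries deviated together (r = 0.245, 0.182 and 0.155; other pairs -0.141 to -0.0262), and the sources used here do not say what the numbers stand for. The numbers paired the samples only in the replicate block and the sign-flip tests. The main fit and the permutation tests left any pairing out. With the block 17.8% of all tested genes were called higher and 18.0% lower, against 14.0% and 13.5% in the main fit. The members and lists were chosen with earlier results of these data known. Some genes (Cyp7a1, Dusp5, Dusp6, Etv5, Il17rd, Spry1, Spry4, Fap, Ret, Gfra2 and markers) were named after their values were seen. The same holds for Fgf2, Fgf12, Fgf15, Gfral, Nr0b2, Nr1h4, Abcb11, Angptl8, Rbp4, Bmp5, Adm2, Etv4 and Lars2. By rule, the other named genes were the members, Fam210a, the genes most like each member and genes overlapping or next to a member. The rule also took called genes of smallest p from each list. These were 4 in the list's main direction and 2 in its other direction, where there were so many. A gene that this rule also names is not reported here. Counting limits such as the CPM of 3 counts cover counting error only.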

Additional observations from a re-analysis of the deposited data

How the results depend on the processing

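Fgf21, Gdf15 and Fgfr4 kept their direction and their call under all 17 alternatives, with log2 fold changes from 4.73 to 5.48, 3.16 to 4.85 and -1.35 to -0.71. Leaving out 1 library at a time, the 5 genes most like each hormone shared 2 to 4 with those above for Fgf21 and 3 to 4 for Gdf15. With library totals, where TMM's correction is absent, Klb turned to 0.23, Fgfr1, Fgfr2 and Fgfr3 passed at 0.87, 0.70 and 0.94, 5 members were called higher, 5846 genes were called higher and 868 lower in all, against 1922 and 1852, and 59 list genes were called higher and 13 lower, against 19 and 25. Nr5a2, Tubgcp6, Ankrd28 and Abca1 also turned, to 0.058, 0.24, 0.19 and 0.26. Nr5a2 missed the threshold with upper-quartile factors, no filter and DESeq2 (adjusted p = 0.0516, 0.169 and 0.0505), Fgfrl1 with upper-quartile factors and no filter (0.0575 and 0.103), and Inhbe and Abhd17c with limma on log2(FPKM + 1) (0.0550 and 0.0877) and on log2(FPKM + 0.1) (0.0541 and 0.0872). With the replicate block Fgfr3 passed at 0.50 (adjusted p = 0.0325), the genes Lgmn, Pacsin2 and Pomt1 passed too (adjusted p = 0.0131, 0.0203 and 0.0412), and among the 7 members no other call changed. Without division by length the share of Fgfr4 differed by -20.5 percentage points, since longer receptors then weigh more. The legacy quasi-likelihood test was added after the data were seen. Within-library differences in receptor shares cannot pass 0.05 with 3 libraries a group, and within the 3 same-numbered pairs the smallest sign-flip p is 0.25. Low control counts of Gdf15 limit the precision of its fold change.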

Other observations

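Of the 4 genes that flank Fgf21 and Gdf15 on the chromosome, 2 were called lower, 1 was not called and 1 had too few counts to be tested, where 13.5% of all tested genes were called lower. Next to Fgf21, Bcat2, which starts the breakdown of branched-chain amino acids, averaged 10.2 CPM in Fam210aHKO and 19.8 CPM in Ctrl (log2 fold change -0.95, SE 0.185, adjusted p = 0.00321, edgeR), and Fut1, 1799 bases away on the other side, had 20, 13 and 8 counts in Fam210aHKO and 2, 7 and 4 in Ctrl. Next to Gdf15, Pgpep1 averaged 40.4 CPM in Fam210aHKO and 57.0 CPM in Ctrl (adjusted p = 0.0368, edgeR), and Lrrc25 did not pass (adjusted p = 0.249, edgeR). Of the genes beside the other 5 members, Tacc3 next to Fgfr3 was higher (log2 fold change 2.74, adjusted p = 5.16e-05, edgeR), as was Rpl9 next to Klb (log2 fold change 0.93, adjusted p = 0.00494, edgeR), where 14.0% of all tested genes were called higher. Tacc1, 257066 bases from Fgfr1, was lower (log2 fold change -0.50, adjusted p = 0.0488, edgeR). The nearest protein-coding genes outside the long Fgfr2 span were Tex36, 463674 bases away with 0 counts, and Wdr11, 526713 bases away. Genes within that span were not taken as neighbours. Rfc1, Letm2, Wdr11, Letm1, Zfp346 and Nsd1 were not called.

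Some genes were below the filter in a way that differed between the groups. Adm2, a secreted peptide hormone of the calcitonin family, had 20, 24 and 11 counts in Fam210aHKO and 0 in every Ctrl library. Etv4, a transcription factor induced by FGF and ERK signals, had 8, 10 and 20 counts in Fam210aHKO and 1, 2 and 1 in Ctrl. Fgf12, an FGF relative that is not secreted, had 12, 7 and 16 counts in Fam210aHKO and 3, 5 and 7 in Ctrl. None of these was tested, and they were picked for their counts.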
